A study of Homo sapiens with 20 samples.

Results

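The genes described here are 10 genes of the ATF4 stress response and of serine synthesis, which were ATF4 itself, the related factors ATF3 and DDIT3, the targets TRIB3, CHAC1 and SESN2, and the metabolic genes ASNS, PHGDH, PSAT1 and SLC7A11. They were taken as every probe whose transcript accession belonged to one of these symbols, which gave 14 probes of the 42405 on the array, and they stood for 10 of the 22224 genes tested. Of the 14 probes, 13 passed the filter on dim probes, and each gene was read from the probe with the highest mean signal, which was well above background on all 20 arrays for each of the 10 genes. The genes were chosen by name, with earlier results of these data known.

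ATF4 is a transcription factor that cells make when amino acids run short, when proteins fold badly in the endoplasmic reticulum or when haem or redox balance fails. Kinases that sense these states phosphorylate eIF2alpha, which slows translation in general but favours translation of the ATF4 transcript, so that the amount of ATF4 protein is set largely after transcription. With partners of the C/EBP family, ATF4 then binds composite C/EBP-ATF elements and raises genes for amino acid synthesis and import, together with regulators that end or sharpen the response. In hepatocytes these genes follow the supply of amino acids and stress of the secretory pathway, and the serine synthesis enzymes are also known for their high level in dividing cells.

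The cells were HepaRG, an established human hepatoma line whose progenitors turn into hepatocyte-like and biliary-like cells in one dish. All cultures shared a medium with serum, insulin and hydrocortisone, and none carried a transgene or an engineered mutation. Cells were harvested on day 4 as progenitors (D4), on day 15 (D15), on day 30 without dimethyl sulfoxide (D30 − DMSO), on day 30 after 2% DMSO from day 15 (D30 + DMSO), and on day 34 after that DMSO had been withdrawn for 4 days (D34 ± DMSO). No culture was kept to day 34 in DMSO or without any DMSO. Withdrawal and 4 more days of culture therefore cannot be told apart. Each of the 5 conditions had 4 arrays, labelled as replicates and described in the methods as independent biological replicates. Total RNA of whole cultures was measured, so fewer cells of a type and less RNA per cell of that type cannot be told apart.

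The promoter stretches below show the kind of site through which this pathway is known to act, and are printed because they are the ones among the 10 genes in which the consensus was found. The letters searched were TGATGNAA on either strand, in the window from 250 bases before to 50 bases after each transcription start that RefSeq lists on GRCh38.p14. Each line gives the stretch 5′ to 3′ on the strand of the gene, with the match in capitals.
ASNS: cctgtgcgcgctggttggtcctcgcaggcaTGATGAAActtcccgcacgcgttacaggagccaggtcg
CHAC1: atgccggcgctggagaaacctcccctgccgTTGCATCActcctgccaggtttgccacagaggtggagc
ATF3: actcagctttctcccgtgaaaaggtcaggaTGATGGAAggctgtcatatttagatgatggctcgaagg
The ASNS stretch lies at chr7:97872439-97872506 on the minus strand, and its match begins 68 bases before the start. The CHAC1 stretch lies at chr15:40953232-40953299 on the plus strand, and its match reads as TGATGNAA on the opposite strand and begins 209 bases before the start. The ATF3 stretch lies at chr1:212565186-212565253 on the plus strand, before the upstream of its 2 listed starts, with the match beginning 191 bases before it. Windows were listed for 9 of the 10 genes, SLC7A11 having no entry, and 3 of these 9 held a match, against 4.46% of 27305 genes with windows in the table. The other 6 genes, ATF4, DDIT3, TRIB3, SESN2, PHGDH and PSAT1, had no such letters in these windows. A match is a run of letters and not a measured site.

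The 20 arrays lay on 4 slides scanned in 2 sessions. The 75th percentile of their signals ran from 407 to 766 intensity units, and from 61.1% to 74.2% of spots were well above background. Arrays of one condition correlated across genes with r between 0.955 and 0.992. Arrays of different conditions on one slide deviated from their condition means together (median r of 0.387 over 44 pairs, lowest 0.117). Slide-blocked values are therefore given beside those differences of the 10 genes that passed the p threshold. Values of the other pathway lists and of the markers are given without a slide block. Hepatocyte markers such as ALB and TTR were well above background and 10 of 10 rose from D4 to D15. Of the biliary markers EPCAM and CFTR were well above background on none of the 20 arrays.

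A gene was called between a pair of conditions when its adjusted p from limma was below 0.005 and its fold change above 2. On this rule few of the 10 genes moved. SLC7A11 fell from D4 to D15, PSAT1 rose when DMSO was withdrawn, and PHGDH was higher at D34 ± DMSO than at D30 − DMSO. Neither culture from D15 to D30 − DMSO nor the addition of DMSO called any of the 10. Over all 5 conditions at once, where the rule was a Bonferroni-adjusted p below 0.001 from limma's moderated F and a range above 3-fold, 0 of the 10 genes had changed, against 5.37% of all genes tested. At an unadjusted p below 0.05, 7 of the 10 and 47.8% of all genes passed, and the lowest Bonferroni-adjusted p of the 10 was 0.264, for ATF3. At a false discovery rate of 0.01 by Benjamini-Hochberg and a range above 2-fold, ATF3, PHGDH, PSAT1 and SLC7A11 passed, 4 of 10 against 21.2% of all genes, and the one-way analysis of variance named in the methods gave 0 at the stricter rule.

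**Figure D1:**
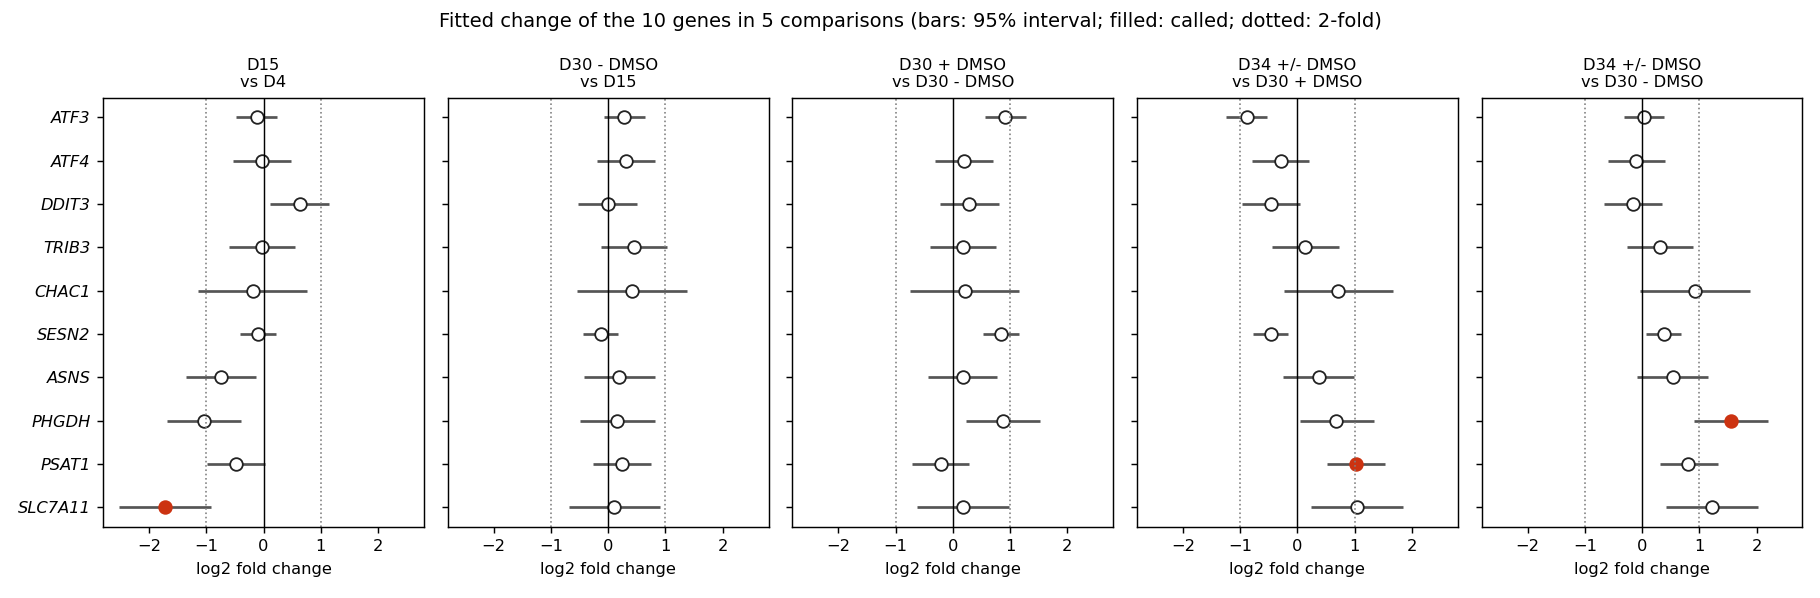
Fitted log2 fold change of each of the 10 genes (rows) in the 5 comparisons (panels, first condition over second), with limma's 95% interval as a bar, called genes filled and dotted lines at 2-fold. SLC7A11 is filled for D15 over D4, PSAT1 for D34 ± DMSO over D30 + DMSO and PHGDH for D34 ± DMSO over D30 − DMSO, and no gene is filled in the other panels.

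ATF4 encodes the factor itself. Its transcript differed little between conditions, as is seen in its levels, given like all levels below as signal scaled to a common 75th percentile (intensity units). At D4 the 4 arrays read 27900, 36200, 35500 and 19700, and at D15 31600, 27600, 30400 and 24800. At D30 − DMSO they read 44200, 36500, 32300 and 29500, at D30 + DMSO 56400, 41300, 39000 and 28900, and at D34 ± DMSO 43800, 23200, 27900 and 41000. The conditions overlapped throughout, and the highest mean was 1.41-fold the lowest (moderated F of 1.49, Benjamini-Hochberg adjusted p = 0.386). With DMSO the log2 change was 0.19, with a 95% interval from −0.31 to 0.70.

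ATF3, a bZIP factor of the same family that is induced by many stresses, stood apart at D30 + DMSO. Its arrays read 3730, 2350, 2250 and 2530 there, against 1660, 1300, 1440 and 1260 at D30 − DMSO. They read 1620, 1230, 1300 and 1660 after DMSO had been withdrawn, 1180, 1290, 1160 and 1430 at D4, and 1230, 1090, 953 and 1400 at D15. All 4 arrays with DMSO were above all 16 arrays without it. The gene was 1.89-fold higher with DMSO than without it (log2 0.92, SE 0.17, adjusted p = 0.000701) and 1.85-fold lower after withdrawal (log2 −0.88, adjusted p = 0.000814), so that in each case the p passed and the fold did not reach 2. Within the slides that held both conditions the log2 difference with DMSO was 0.84 on slide 3 and 0.92 on slide 4, and with the slide as a block it was 0.88 (adjusted p = 0.00208), and for withdrawal −0.87 (adjusted p = 0.00142).

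The 4 probes of ATF3 did not move alike. The probe used, A_23_P34915, is the brightest, and the others changed with DMSO by 0.80 (A_24_P33895, adjusted p = 0.110), −0.35 (A_33_P3214096, adjusted p = 0.644) and 0.19 (A_33_P3214105, adjusted p = 0.548) on the log2 scale. On withdrawal A_24_P33895 changed by −1.05 (adjusted p = 0.0283), A_33_P3214096 by 0.17 (adjusted p = 0.83) and A_33_P3214105 by −0.31 (adjusted p = 0.246). One probe of the 4 therefore carries the ATF3 difference past the p threshold, and a second one has a similar size with a larger error.

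DDIT3 encodes CHOP, a C/EBP-related factor linked to cell death under lasting stress. It was lowest at D4, where the arrays read 167, 245, 195 and 171, and read 259, 356, 339 and 252 at D15. These groups did not overlap, but the difference was not called (log2 0.63, SE 0.24, adjusted p = 0.0697). At D30 − DMSO the levels were 343, 276, 242 and 337, at D30 + DMSO 461, 294, 370 and 349, and at D34 ± DMSO 355, 208, 167 and 401. From D15 onward the arrays of the compared conditions overlapped, and none of these differences passed the test.

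TRIB3, a pseudokinase that feeds back on ATF4 and on insulin signalling, was not called in any comparison. Its arrays read 6530, 7410, 9360 and 4670 at D4, and 6260, 7150, 7580 and 5800 at D15. They read 12200, 8740, 7940 and 7960 at D30 − DMSO and 15800, 10500, 8950 and 7450 at D30 + DMSO. At D34 ± DMSO they read 16400, 6960, 9920 and 14300, the widest spread of the 5 conditions for this gene. All arrays at D30 − DMSO exceeded all arrays at D15, with a log2 difference of 0.45 and an interval from −0.13 to 1.02 that included 0.

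CHAC1 encodes an enzyme that cleaves glutathione and is one of the targets of ATF4 that respond most in many cells. It read 227, 207, 262 and 175 at D4, 218, 205, 201 and 140 at D15, and 328, 230, 186 and 287 at D30 − DMSO. With DMSO it read 479, 315, 237 and 200, and after withdrawal 1050, 173, 270 and 1050. A pair of the withdrawn arrays lay far above all others in the series, while the other pair lay among them, so that the mean difference from D30 + DMSO, log2 0.71, had an interval from −0.24 to 1.67 (adjusted p = 0.322). Its second probe was well above background on 9 arrays only and was not tested.

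SESN2, a sestrin that restrains mTORC1 when leucine is scarce, was the other gene with a clear difference under DMSO. Its arrays read 531, 469, 646 and 552 with DMSO and 302, 305, 298 and 316 without it. They read 428, 344, 328 and 344 at D4, 292, 363, 382 and 311 at D15, and 434, 374, 313 and 485 after withdrawal. The groups with and without DMSO at day 30 did not overlap, and SESN2 was 1.79-fold higher with it (log2 0.84, SE 0.15, adjusted p = 0.000418), short of 2-fold. On slides 3 and 4 the log2 difference was 0.73 and 0.92, and with the slide as a block it was 0.82 (adjusted p = 0.000584). After withdrawal it was 1.38-fold lower (log2 −0.46, adjusted p = 0.0291), with overlapping arrays, and it lay between the levels with and without DMSO.

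**Figure D2:**
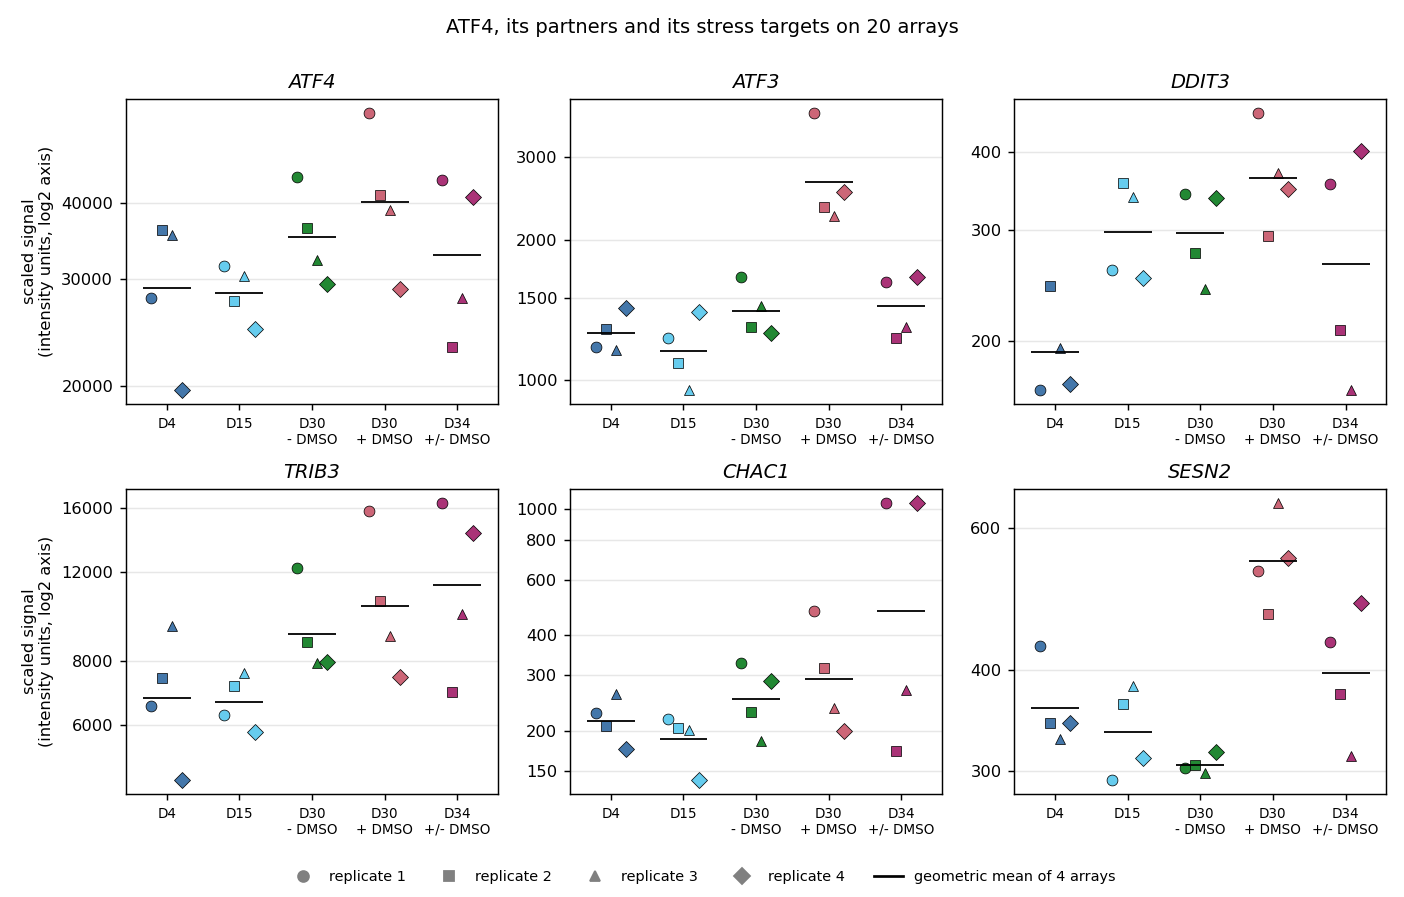
Scaled signal (intensity units, log2 axis) of ATF4, ATF3, DDIT3, TRIB3, CHAC1 and SESN2 on each of the 20 arrays, with symbols for the replicate number, colours for the condition and a line for the geometric mean of 4 arrays. ATF3 and SESN2 are highest at D30 + DMSO, and CHAC1 at D34 ± DMSO shows 2 arrays at 1050 and the other two at 173 and 270.

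Of the metabolic genes, SLC7A11 had its highest mean at D4, and PHGDH and PSAT1 at D34 ± DMSO. ASNS was about equal in these conditions, with log2 means of 2.44 at D4 and 2.43 at D34 ± DMSO. Its mean scaled signals there were 3120 and 3420. ASNS makes asparagine, PHGDH and PSAT1 catalyse the first and second steps of serine synthesis from glycolysis, and SLC7A11 is the subunit of the cystine and glutamate exchanger that brings in cystine for glutathione. For all 4, every D15 array lay below every D4 array, which was so for 11.4% of all genes. By the rule for calls 1 of the 10 genes fell from D4 to D15, against 3.69% of all genes, and 0 of 10 rose, against 5.79%.

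SLC7A11 had levels of 1020, 958, 1180 and 478 at D4 and of 244, 322, 304 and 196 at D15. It was thus 3.30-fold lower at D15 (log2 −1.72, SE 0.38, adjusted p = 0.00226). With the slide as a block the change was −1.79 (adjusted p = 0.00288), and within slides 2, 3 and 4 it was −2.07, −1.87 and −0.97. The call was lost without the filter on dim probes (adjusted p = 0.00555) and by the methods' t-test (0.0184). It was also lost without D4 replicate 1, 2 or 3 or without D15 replicate 1 or 4, with adjusted p from 0.00724 to 0.0102. It stayed at 321, 209, 256 and 365 at D30 − DMSO and 464, 253, 202 and 437 at D30 + DMSO. After withdrawal the arrays read 943, 419, 377 and 1250, all above those at D30 − DMSO, although the difference was not called (log2 1.22, SE 0.38, adjusted p = 0.0793).

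PHGDH read 1320, 632, 884 and 1140 at D4 and 386, 388, 514 and 607 at D15. The change of −1.04 (SE 0.31) had an adjusted p of 0.0178 and was not called, but with the slide as a block it was −1.27 with an adjusted p of 7.02e-05, which passed both thresholds. At D30 − DMSO the arrays read 402, 421, 448 and 961, at D30 + DMSO 810, 808, 999 and 1270, and after withdrawal 1380, 1220, 1230 and 2620. Every withdrawn array was above every D30 − DMSO array, and PHGDH was 2.94-fold higher (log2 1.56, SE 0.31, adjusted p = 0.00414). Within slides 1, 3 and 4 this difference was 1.45, 1.70 and 1.45, and with the slide as a block it was 1.61 (adjusted p = 4.14e-05). It was not called with quantile normalization (adjusted p = 0.00648), the authors' values (0.00788), no filter on dim probes (0.0102), only the arrays compared (0.0555) or the methods' t-test (0.121). The call held without D30 − DMSO replicate 4 and was lost without any other array of these conditions, with adjusted p from 0.00686 to 0.0209. From D15 onward the array of replicate 4 was the highest of its condition, and all of these lay on slide 4, the one slide of the second scan session.

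With DMSO the PHGDH difference of 0.88 had an adjusted p of 0.0551, and on slides 3 and 4 it was 1.01 and 0.23, each against 1 array without DMSO, which on slide 4 was the high reading of 961. Blocked by slide it was 0.70 (adjusted p = 0.0134). Against D30 + DMSO the withdrawn cultures were 0.68 higher (adjusted p = 0.133), and 0.91 higher with the slide as a block (adjusted p = 0.00155), still below 2-fold.

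PSAT1 read 4060, 3430, 3910 and 3640 at D4, and 2200, 2980, 2790 and 2850 at D15. It read 2980, 2650, 2770 and 4750 at D30 − DMSO and 2960, 2880, 2200 and 3070 with DMSO. After withdrawal it read 7380, 3310, 4930 and 8210, every array being above those with DMSO. It was 2.03-fold higher than with DMSO (log2 1.02, SE 0.24, adjusted p = 0.00411), just past the fold threshold. On slides 3 and 4 the difference was 1.05 and 1.66, and with the slide as a block 1.18 (adjusted p = 0.000376). It was not called with normexp (adjusted p = 0.00583), the authors' values (0.00612), no filter (0.0087), only the arrays compared (0.041) or the methods' t-test (0.0857). The call held without D34 ± DMSO replicate 2 and was lost without any other array of these conditions, with adjusted p from 0.00627 to 0.0192.

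ASNS read 3490, 3200, 3580 and 2210 at D4 and 1800, 1880, 2050 and 1610 at D15, a log2 change of −0.75 (SE 0.29, adjusted p = 0.0753). It read 2340, 1820, 1900 and 2360 at D30 − DMSO and 3050, 2410, 2140 and 1950 with DMSO. After withdrawal it read 5280, 1830, 1850 and 4730, the same wide split that CHAC1 showed, and the difference from D30 + DMSO, log2 0.37, had an interval from −0.25 to 0.98.

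**Figure D3:**
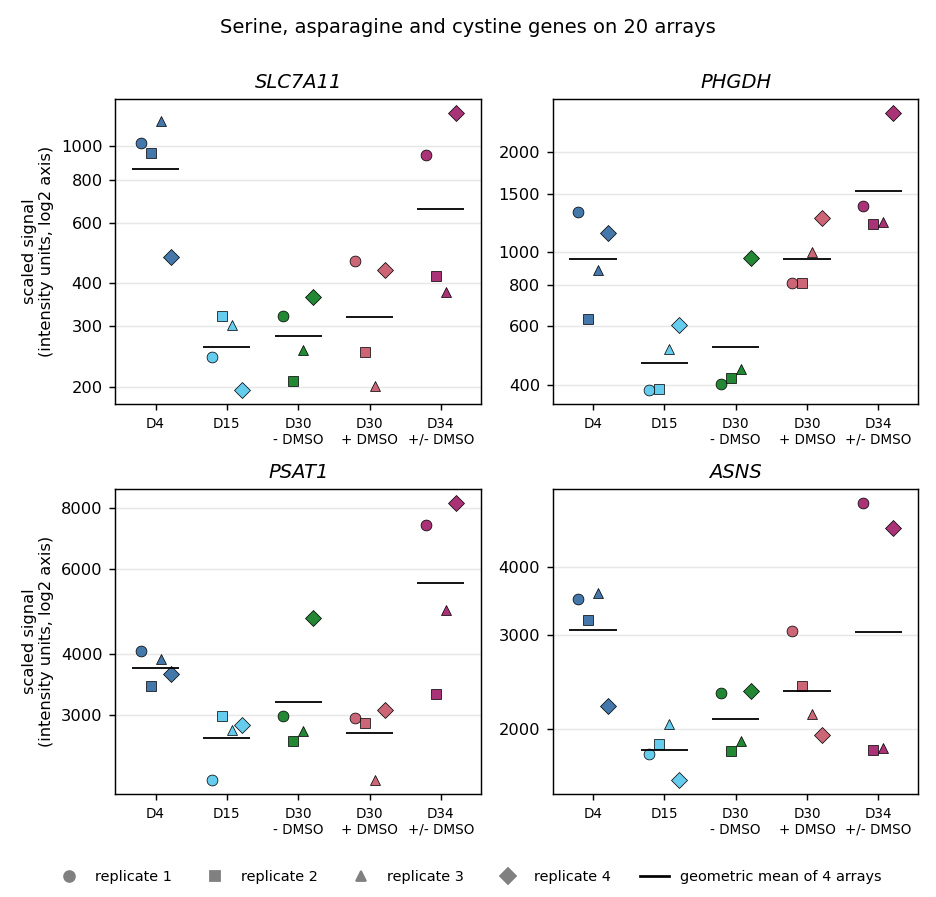
Scaled signal (intensity units, log2 axis) of SLC7A11, PHGDH, PSAT1 and ASNS on each of the 20 arrays, with symbols for the replicate number, colours for the condition and a line for the geometric mean of 4 arrays. In each panel the 4 D15 arrays lie below the 4 D4 arrays, and replicates 1 and 4 are the highest arrays at D34 ± DMSO.

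Between D15 and D30 − DMSO limma called 0 of the 10 genes and 0.0045% of all genes, and 0 of the 10 had an unadjusted p below 0.05, against 2.98% of all genes. The median log2 difference of the 10 genes was 0.22, against −0.01 over all genes. For the addition of DMSO limma called 0 of the 10 genes, against 1.73% of all genes called higher and 4.18% called lower. There 3 of the 10 had an unadjusted p below 0.05, ATF3, SESN2 and PHGDH, against 28.8% of all genes, and 0 were called by the t-test that the methods name. The median of the 10 genes was 0.20 with DMSO, against 0.04 over all genes.

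On withdrawal, D34 ± DMSO against D30 + DMSO, 1 of the 10 genes rose and 0 fell, against 4.95% of all genes called higher and 2.1% called lower. Against D30 − DMSO 1 of the 10 was higher and 0 lower, with 1.31% and 0.211% of all genes called. These comparisons share arrays with each other and with the addition of DMSO, so their values are not independent. The median of the 10 genes was 0.25 and 0.46, against −0.07 and −0.03 over all genes.

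Proliferation markers moved in the direction of SLC7A11 from D4 to D15 and of PSAT1 on withdrawal. With DMSO the median log2 change of the markers was −0.27, with 0 of 10 called, while the median of the 10 genes described here was 0.20. All 10 measured markers, such as MKI67 and CDK1, fell from D4 to D15 and 10 of 10 rose on withdrawal. Their summed signal was 28700 to 36100 at D4, 7890 to 11600 at D15, 9010 to 12000 at D30 − DMSO, 7290 to 9170 at D30 + DMSO and 21400 to 30900 at D34 ± DMSO. Fibroblast markers with a tested probe summed to 9810 to 18600 at D4 and to 3570 to 6950 at D15, with 2 of 3 called lower. They summed to 3650 to 7870 at D30 − DMSO, to 505 to 864 with DMSO and to 3280 to 7440 after withdrawal. Here 2 of 3 were called lower with DMSO and 2 of 3 higher on withdrawal. Of this list COL1A2 and PDGFRB were well above background on none of the arrays and THY1 on 1. All cultures were of the HepaRG line, so signal of these genes does not show that fibroblasts were present. The macrophage and endothelial markers PTPRC, CD14, CD68 and CDH5 were also well above background on 20 arrays. PECAM1 and VWF were so on at most 10 and 13. The part of a change in cell state or of cell division in the results above was not tested.

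The 4 cultures after withdrawal were not alike. Replicates 1 and 4 gave the 2 highest readings for 10 of the 10 genes, which was so for 11.3% of 22168 genes. This count was made after the values had been seen. Replicates 1 and 3 lay on slide 3, replicate 2 on slide 1 and replicate 4 on slide 4, and the 75th percentiles of the 4 arrays were 613, 643, 407 and 554 intensity units in replicate order. The part of the slide and of the brightness of the array was not tested. The mean deviation of the 10 genes from their condition means was 0.44, −0.58, −0.44 and 0.58 on the log2 scale for replicates 1 to 4. CHAC1 deviated most, by 1.14, −1.47, −0.82 and 1.14.

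Other lists of the pathway behaved in different ways on the same 4 arrays. The list of aminoacyl-tRNA synthetases, which charge tRNAs, also held XPOT, which is not a synthetase. Replicates 1 and 4 were the highest pair for 9 of its 13 genes and for 5 of 7 amino acid transporters. They were so for 3 of 5 genes of the proline, glutamate and aspartate list and 3 of 7 secreted and other stress targets. They were the highest pair for 4 of 10 other bZIP and feedback factors and 1 of 5 genes for eIF2alpha and its kinases. They were so for 0 of 5 other enzymes of serine, glycine and folate metabolism and 0 of 4 genes of serine catabolism. In the cysteine and glutathione list they were so for 0 of 6 genes. They were so for 1 of 18 endoplasmic reticulum chaperones and genes of the ATF6 and XBP1 arms, 0 of 10 hepatocyte markers and 4 of 10 proliferation markers. The mean deviation of the tRNA synthetase list was 0.06, −0.18, −0.31 and 0.43, and that of the chaperone list −0.13, 0.13, 0.09 and −0.09. For the proliferation markers it was −0.09, −0.20, −0.39 and 0.68. Replicate 4 was thus also the array with the highest proliferation markers, whereas replicate 1 was near the mean for them. With replicate 4 left out PSAT1 was 0.84 higher than with DMSO (adjusted p = 0.0179), and with replicate 1 left out 0.89 higher (adjusted p = 0.0185), so that without either of these arrays it was not called.

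The order of the arrays was another one at D30 + DMSO, where replicate 1 gave the highest reading for 7 of the 10 genes, ATF3, ATF4, DDIT3, TRIB3, CHAC1, ASNS and SLC7A11. Replicate 1 was the highest array of that condition for 39.7% of all genes, against 70% of the 10. Replicate 4 gave the lowest reading there for ATF4, TRIB3, CHAC1 and ASNS.

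**Figure D4:**
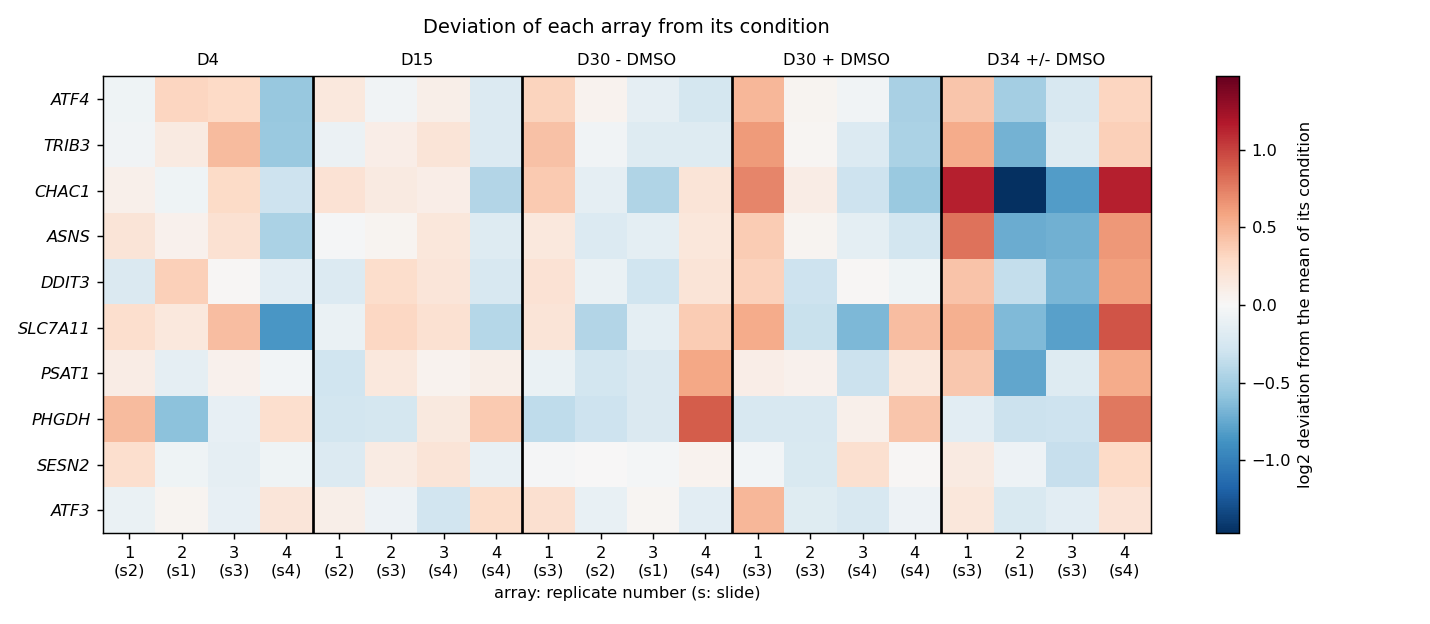
Deviation of each array (columns, by condition, replicate number and slide) from the mean of its condition for the 10 genes (rows), on the log2 scale, red above and blue below. Under D34 ± DMSO the columns of replicates 2 and 3 are blue, and those of replicates 1 and 4 are red for 9 and 10 of the genes.

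Deviations from the condition means also tied the genes to each other over the 20 arrays, which share 4 slides and come in 5 conditions, so the values below are descriptions. The within-condition correlation of ATF4 with TRIB3 was 0.943, and among 21993 other genes TRIB3 was the one most like ATF4, and ATF4 the one most like TRIB3. CHAC1 and ASNS were likewise each other's closest gene, with r of 0.946. For SLC7A11 the closest of the 10 was ASNS, at rank 3 with r of 0.830, and for DDIT3 it was also ASNS, at rank 6 with r of 0.810.

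For PHGDH with ATF4 r was −0.303, near the median of −0.306 for PHGDH with all other genes, and −0.047 with slide means removed too. For PHGDH the closest of the 10 was PSAT1, with r of 0.643 at rank 2537. SESN2 had r between −0.052 and 0.628 with the other genes, and ATF3 between −0.052 and 0.479. The median r of each of the 10 genes with all other genes ran from −0.306 for PHGDH to 0.172 for ATF4, with 0.141 for TRIB3. Over the 45 pairs of the 10 genes the median was 0.503, and it was 0.566 when slide means were removed too.

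The D34 ± DMSO arrays carried part of this. Over the 16 arrays without them the median of the 45 pairs was 0.248. ATF4 with TRIB3 was then 0.922, CHAC1 with ASNS 0.851, TRIB3 with ASNS 0.848 and TRIB3 with CHAC1 0.838. For ATF4 with PHGDH it was −0.677, and for ATF4 with PSAT1 −0.252. CHAC1 with SESN2, PSAT1 and DDIT3 was −0.103, 0.231 and 0.538 there, against 0.416, 0.724 and 0.776 over all 20 arrays.

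For the 3 genes with the highest moderated F, likeness was measured over all 20 arrays, condition differences included. Among the genes most like ATF3 were UHMK1, with r of 0.887, and a transcript listed as XM_001717780, with r of 0.879. PHGDH was most like REEP4, TUBB4B and CDKN2C, with r of 0.903, 0.902 and 0.884. SESN2 was most like FAM185A, POLG and ING1, with r of 0.875, 0.853 and 0.849.

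The rest of the pathway was read from lists of genes fixed by name. The enzymes that break serine down had the largest median change of these lists in 3 of the 5 comparisons, D15 over D4, the addition of DMSO and its withdrawal. Of 4 measured, SDS (serine dehydratase), AGXT (alanine-glyoxylate aminotransferase, which can also use serine) and GLYCTK (glycerate kinase) rose from D4 to D15, by 2.10, 5.98 and 3.17 on the log2 scale. SDS and AGXT rose again with DMSO, by 2.08 (adjusted p = 8.06e-05) and 2.40 (adjusted p = 1.93e-05), and fell on withdrawal, with log2 changes of −3.33 (adjusted p = 3.2e-07) and −1.90 (adjusted p = 0.000164). The medians of this list were 2.63, 1.43 and −1.59 in these comparisons. SDS and AGXT are liver enzymes. Of the 10 hepatocyte markers, 10 rose from D4 to D15, 2 rose with DMSO and 2 fell on withdrawal, these being CYP3A4 and CYP2E1 both times, and the medians of that list were 3.23, 0.79 and −0.69.

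Among 5 other enzymes of serine, glycine and mitochondrial folate metabolism, SHMT1, the cytosolic enzyme that turns serine into glycine, rose from D4 to D15 by 1.84 and MTHFD1L, of the mitochondrial folate pathway, rose on withdrawal by 1.21. None of the 5 was called for DMSO, with values from −0.82 to 0.94. MTHFD2 was not tested.

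The list of cysteine and glutathione synthesis held 6 genes, of which CHAC2 is not a synthesis enzyme. Of its genes CTH, which makes cysteine from cystathionine, and GCLC, the catalytic subunit that starts glutathione synthesis, rose with DMSO by 1.43 and 1.19. On withdrawal CTH fell by 1.12 and GCLC by 1.35. CTH had also risen from D4 to D15, by 1.34. SLC7A11, which supplies the same route from outside the cell, had fallen in that interval and was not called for DMSO.

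Of 7 amino acid transporters, SLC7A1, the carrier of arginine and lysine, fell by 1.87 with DMSO (adjusted p = 0.00303) and rose on withdrawal by 2.12 (adjusted p = 0.000892). SLC7A5, the large neutral amino acid carrier, was well above background on no array at D15 or D30 + DMSO. It was at least 9.66-fold lower at D15 than at D4 (adjusted p = 0.00102), taking the level at D15 as the higher of its own signal and the lowest signal that was well above background on the array, and at least 1.84-fold higher after withdrawal, where 2 of 4 arrays measured it. SLC43A1 rose from D4 to D15 by 1.30.

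The remaining lists held few calls. Of the 13 genes of the aminoacyl-tRNA synthetase list, XPOT included, limma called 0 in each of the 5 comparisons, with medians from −0.23 to 0.11. Of 10 other bZIP and feedback factors, among them CEBPB, ATF5 and NUPR1, and of eIF2alpha and its 4 kinases it also called 0 in each. Of 5 genes of proline, glutamate and aspartate synthesis GPT2 rose with DMSO, by 1.15. Of 7 secreted and other stress targets GDF15, a secreted stress cytokine, fell by 1.85 from D4 to D15.

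Among 18 chaperones and genes of the ATF6 and XBP1 arms, XBP1, a factor for secretory capacity, and DNAJB9, one of its targets, rose from D4 to D15 by 1.72 and 1.46. PDIA4 and SDF2L1 rose on withdrawal by 1.12 and 1.20. With DMSO limma called 0 of the 18, with values from −0.63 to 0.58.

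**Figure D5:**
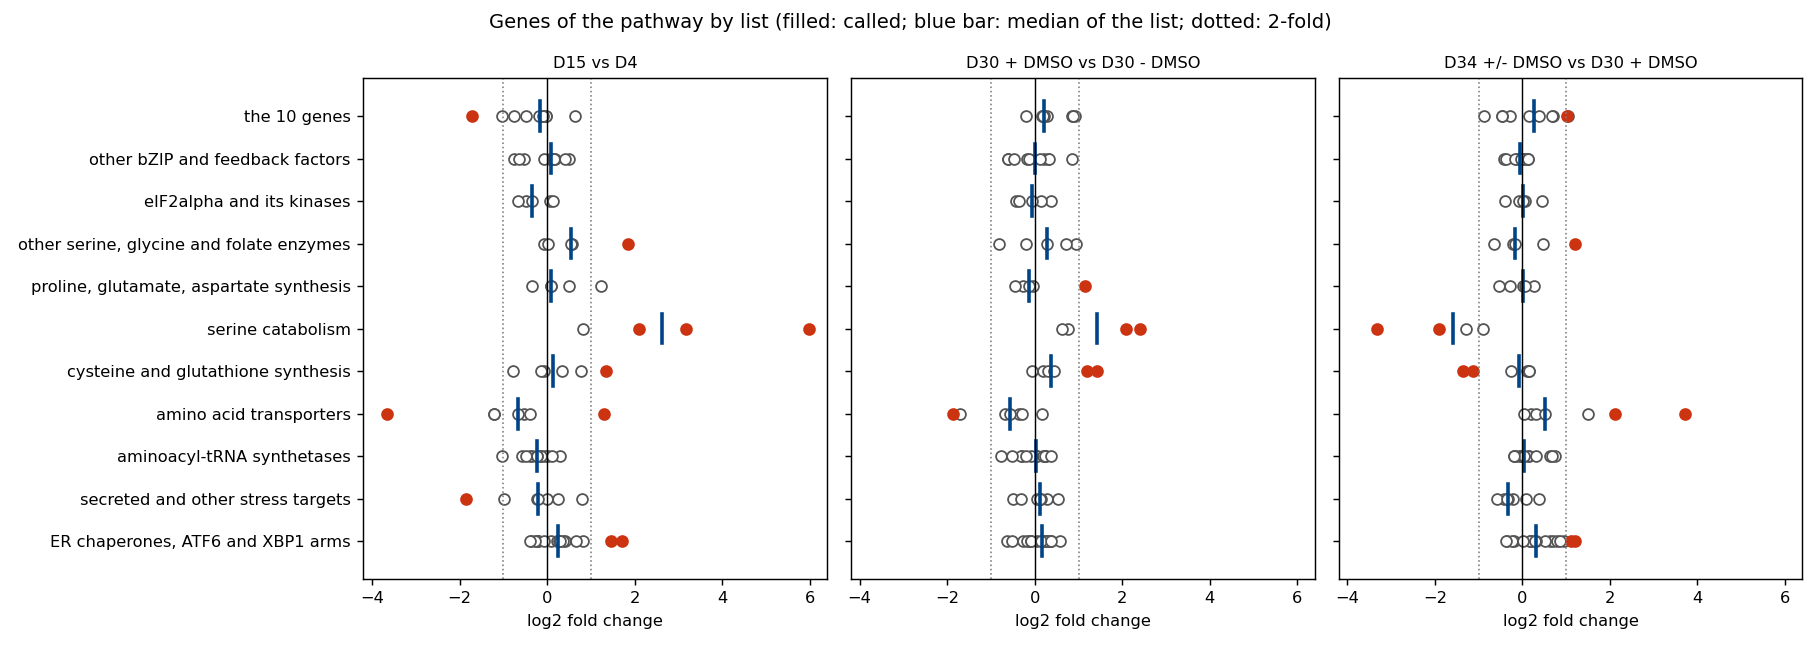
Log2 fold change of each tested gene (points) of the 11 lists of the pathway (rows) in 3 comparisons (panels), with called genes filled, the median of a list as a blue bar and dotted lines at 2-fold. The serine catabolism genes lie to the right of 0 for D15 over D4 and for DMSO, and to the left for withdrawal, and the tRNA synthetase row has no filled point.

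The element shown above for ASNS, CHAC1 and ATF3 was also counted in the windows of these lists, by gene. It was found in 7 of 11 genes of the tRNA synthetase list and in 5 of 9 amino acid transporters with a window. The share over all 27305 genes with windows was 4.46%. Of the other bZIP and feedback factors 3 of 8 held the element, and of the secreted and other stress targets 1 of 9. The element was in 1 of 3 other serine, glycine and folate enzymes and in 1 of 3 genes of the proline, glutamate and aspartate list. Of the genes for eIF2alpha and its kinases 0 of 4 held the element. In the chaperone list it was found in 1 of 18, and in the serine catabolism and the cysteine and glutathione lists in 0 of 3 and 0 of 5. Whether the element bears on the readings was not tested.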

How the data were processed

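The authors hybridised Cy3-labelled cRNA from total RNA of 20 HepaRG cultures to one-colour Agilent 8x60K arrays and extracted signals with Feature Extraction (version 10.7.1.1 in the file headers, 10.7.3.1 in the submitters' processing notes). The deposited intensity per spot is background-subtracted. The deposited matrix of the authors holds log2 values that followed the log2 intensity minus each array's 75th percentile, to an array shift of at most 0.113. Deposited flags for signal well above background and for outliers were used as given.

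Signals were scaled to a common 75th percentile, floored at 1 and put on the log2 scale after control and outlier-flagged spots (0.451% to 1.10% per array) had been left out and spots of a probe averaged. The filter kept 26541 of 42405 probes, those whose signal was well above background throughout 1 condition or more, and each gene was read from its probe of the highest mean. Symbols came from transcript accessions through RefSeq, for 24826 probes; other probes keep their identifier. limma 3.58.1 in R 4.3.3 was fitted to all 20 arrays with 5 condition means, with p-values adjusted by Benjamini-Hochberg over 22224 genes. The fit was also run on simulated data with independent noise. That noise lacked the deviations shared by arrays of a slide, so the run does not bear on them. The precision is limited by 4 arrays a condition. Levels are not compared between probes.

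The members and lists were chosen with earlier results of these data known. All 10 genes are named, up to 4 called genes of each pathway list with the largest change, and for the 3 highest F the 3 most correlated genes, of which 1 is not reported here. Promoter windows are those of RefSeq on GRCh38.p14, matched by symbol. Replicate numbers were tried as a block but were not used as pairs in the main fit. Alternatives were other normalizations, the authors' values, other filters and floors, every probe, slide and replicate number as blocks, fewer arrays, the methods' tests and other thresholds. Keeping spots marked as outliers was added after seeing the data.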

Additional observations from a re-analysis of the deposited data

Results flagged for a closer look

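Of the 50 combinations of gene and condition, 2 had 1 array far from the other 3, where the gap of the end array was divided by the whole range and compared with Dixon's 95% critical value for 4 arrays. Chance marks about 1 in 20 such groups. Both were PHGDH in replicate 4, with a ratio of 0.877 at D30 − DMSO, where it read 961 against 402 to 448, and of 0.841 at D34 ± DMSO, where it read 2620 against 1220 to 1380. Both arrays lay on slide 4. The bearing of the slide on these values was not tested. Without the D30 − DMSO array PHGDH was 1.85 higher at D34 ± DMSO on the log2 scale (adjusted p = 0.00049), and without the D34 ± DMSO array 1.30 higher (adjusted p = 0.0153).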

How the results depend on the processing

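No call among the 10 genes changed direction. The 3 calls lay near their thresholds. From D4 to D15 the count of 1 called gene became 0 without the filter on dim probes and by the methods' t-test, and 2, with PHGDH added, with the slide as a block and at an adjusted p below 0.05 with or without a fold limit. For D34 ± DMSO against D30 + DMSO the count of 1 became 0 with normexp, the authors' values, no filter, only the arrays compared and the t-test, and 3 at an adjusted p below 0.05 with no fold limit, a rule that 22.1% of all genes passed. For D34 ± DMSO against D30 − DMSO the count of 1 became 0 with quantile normalization, the authors' values, no filter, only the arrays compared and the t-test. With DMSO the count of 0 became 2 at an adjusted p below 0.05 with no fold limit, against 18.5% of all genes, and the count over 5 conditions became 4 at the wider rule given above. Leaving out arrays gave counts from 0 to 1 for the 3 comparisons with a call, and 0 to 0 for the others. SLC7A11 lost its call without replicate 1, 2 or 3 of D4 or replicate 1 or 4 of D15 (adjusted p from 0.000726 to 0.0102 over the 8 arrays left out), PHGDH without any array but D30 − DMSO replicate 4 (0.00049 to 0.0209), and PSAT1 without any array but D34 ± DMSO replicate 2 (0.000291 to 0.0192). These fits hold fewer arrays.

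Deviations of same-numbered arrays of different conditions correlated with a median of 0.274 and a lowest value of −0.327 over 40 pairs. Over 120 pairs with other numbers the median was −0.169. For 22 same-numbered pairs on other slides it was 0.065, against −0.179 for all 116 pairs on other slides. Same-numbered arrays were thus somewhat more alike, in part through shared slides. Whether the numbers pair the cultures was not tested, and they were not used as pairs in the main fit. With the replicate block the count from D4 to D15 was 2, with PHGDH at −1.04 (adjusted p = 0.000596), and the other counts stayed at 0, 0, 1, 1 and 0.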
